A study of Homo sapiens with 12 samples.

Results

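The 47 genes described here are the ligands and receptors of the tumour necrosis factor (TNF) superfamily, 18 ligands and 29 receptors, picked by gene name from a table of 57500 genes. Their counts were read in 12 RNA-seq libraries of total RNA depleted of ribosomal RNA from 2 human cell lines, HCC1806 and MDA-MB-468, both established from triple-negative breast cancers. In HCC1806 the control libraries carried the guide sgC1 and the depleted libraries the guide sgPACT-2. In MDA-MB-468 the control guide was sgNTA and the depleting guide again sgPACT-2, and each of the 4 groups had 3 libraries. The guide sgPACT-2 directs Cas9, the nuclease of the CRISPR system, to PRKRA, the gene of PACT, a double-stranded RNA binding protein that acts on the kinase PKR. Only 1 guide against PRKRA was used and the control guide differed between the lines, so an effect of the guide sequence and of PACT loss cannot be told apart. The labels do not say whether the cells were clones or pools, nor whether the 3 libraries of a group came from separate cultures, so p-values measure only the spread between these libraries, which may be technical.

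TNF superfamily ligands are mostly trimeric membrane proteins, some of which are cleaved and released, and each binds 1 or more receptors on the same or another cell. The receptors carry no enzyme. Those with a death domain (TNFRSF1A, FAS, TNFRSF10A, TNFRSF10B, TNFRSF21, TNFRSF25, EDAR and NGFR) bind adaptors such as TRADD, FADD or EDARADD, while others bind TRAF proteins and lead to the transcription factor NF-kappaB or to JNK. Several ligands and receptors, among them TNF, LTA, LTB, CD40 and TNFRSF9, are themselves known as targets of NF-kappaB in immune cells, and in epithelial tumours the family is known for control of cell death and inflammation.

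Libraries held 18640633 to 44790741 counts, those of MDA-MB-468 more than those of HCC1806, and the 47 genes together took 669 to 738 CPM (read counts relative to library size, TMM-scaled) in MDA-MB-468 and 1250 to 1540 CPM in HCC1806. The targeted gene PRKRA had 78.6, 82.6 and 72.1 CPM in HCC1806 controls and 37.5, 36.1 and 37.3 CPM after depletion, a log2 fold change of -1.07 ± 0.102 (SE, edgeR adjusted p = 1.70e-05). In MDA-MB-468 it had 41.1, 45.9 and 46.9 CPM in the control and 39.2, 35.5 and 41.6 CPM in the depleted libraries, which overlapped (log2 fold change -0.20 ± 0.101, edgeR adjusted p = 0.958); a Cas9 cut can remove a protein without lowering its RNA, so the RNA does not check the depletion there. Since many of these genes are known from leukocytes, 15 leukocyte markers were read as well. The T and B cell markers CD3D, CD3E, CD3G, CD2 and MS4A1 had at most 2 counts in any library. The summed level of the 15 was 7.24 to 8.06 CPM in HCC1806 controls and 9.26 to 13 CPM after depletion, and 112 to 130 and 99.5 to 104 CPM in MDA-MB-468, where CD14 made up 98.7 CPM of the control mean. Markers at 0 in every library of the group numbered 5, 5, 6 and 7 of the 15 in the same order. Of these markers ITGAM, an integrin subunit of myeloid cells, rose in HCC1806 (log2 fold change 2.6 ± 0.555, edgeR adjusted p = 0.0191, and 0.0104 with HCC1806 fitted alone). In MDA-MB-468 ITGAM had 1.97 ± 0.539 (adjusted p = 0.327, and 0.0255 with that line alone) and CD14 -0.33 ± 0.115 (0.669 and 0.0194), both without overlap between groups. Of 6 epithelial genes EPCAM (-0.55, edgeR adjusted p = 0.0335), CDH1 (-0.38, adjusted p = 0.0373) and KRT5 (-0.92, adjusted p = 0.0106) fell in HCC1806, none of these 3 passing with that line alone. The others had 0.51 (KRT17, adjusted p = 0.0809, all depleted libraries above the controls), -0.36 (KRT8, 0.237) and -0.065 (KRT18, 0.946), the last 2 with overlap. The part of these markers in the results below was not tested. Along the first principal component of HCC1806, which took 30.3% of the variance, depleted replicate 1 lay farthest out.

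A member was taken as detected in a line when all 3 libraries of at least 1 group had 10 or more counts, and as near zero when no library of the line had over 3 counts. In HCC1806 36 members were detected, 5 were low and 6 near zero. In MDA-MB-468 26 were detected, 12 were low and 9 near zero, although these libraries were the deeper ones. Detected in both lines were 23 members, and near zero in both were 4: the ligands TNFSF11 (the osteoclast factor RANKL) and FASLG, with highest counts of 3 and 2, and the receptors EDA2R and TNFRSF6B, with 0 counts in all 12 libraries. All exon bases of TNFRSF6B also belong to the read-through gene RTEL1-TNFRSF6B, which had 8100 counts, so its 0 carries no information on its transcription. For a single library with 0 counts, up to 3 counts (0.0749 to 0.147 CPM, depending on depth) are allowed by counting error alone. Where several libraries all had 0 counts, this bound is looser than counting error requires.

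Levels of different genes are compared here as CPM per kilobase of annotated exon (CPM per kb), averaged over the 3 control libraries of a line ± SD. Ligand transcripts were scarce. TNFSF10, the death ligand TRAIL, was the most abundant ligand in both lines, at 6.66 ± 2.12 CPM per kb in HCC1806 and 14.7 ± 1.97 in MDA-MB-468. TNFSF9, the ligand of TNFRSF9, followed in HCC1806 at 3.87 ± 0.905, with 2.39 ± 0.34 in MDA-MB-468. TNFSF13, the B cell factor APRIL, had 1.25 ± 0.281 in HCC1806 and 8.27 ± 0.21 in MDA-MB-468, and TNFSF12, the ligand TWEAK, 0.59 ± 0.225 and 1.93 ± 0.169. The counts of TNFSF12 and TNFSF13 are less certain, since both share exon bases with the read-through gene TNFSF12-TNFSF13 (29.4% and 55.5%). TNFSF15, a costimulator of T cells through TNFRSF25, stood at 0.712 ± 0.0813 and 0.682 ± 0.103 CPM per kb, values that overlapped between the lines.

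The other ligands lay under 1 CPM per kb. TNF itself had 0.165 ± 0.114 CPM per kb in HCC1806 and 0.206 ± 0.0794 in MDA-MB-468, from 3 to 16 counts in each of the 6 control libraries. TNFSF4, the ligand of TNFRSF4, had 0.311 ± 0.137 and 0.26 ± 0.0725, and TNFSF18, the ligand of TNFRSF18, 0.506 ± 0.347 and 0.107 ± 0.0475. LTB, the membrane partner of lymphotoxin alpha, had 0.253 ± 0.0654 in HCC1806 and 2 to 4 counts per library in MDA-MB-468. CD70, the ligand of CD27, had 0.578 ± 0.204, and TNFSF13B, the B cell factor BAFF, 0.612 ± 0.193 in HCC1806; neither had over 10 counts in any MDA-MB-468 library. EDA, the ectodysplasin ligand, had 10 to 12 counts in HCC1806 controls and 0 in all 6 libraries of MDA-MB-468. LTA, lymphotoxin alpha, was near zero in HCC1806 (at most 3 counts) and had 4, 0 and 0 counts in MDA-MB-468 controls. TNFSF14, the ligand LIGHT, had at most 17 counts in any library. CD40LG, the T cell ligand of CD40, had at most 1 count in HCC1806, while MDA-MB-468 controls held 6 to 15, and TNFSF8, the ligand of TNFRSF8, 0 to 5 counts in HCC1806 controls and 0 in MDA-MB-468 controls.

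Receptor transcripts reached higher levels. TNFRSF21, a death domain receptor, led in HCC1806 at 120 ± 8.19 CPM per kb, with 53.7 ± 3.22 in MDA-MB-468. TNFRSF12A, the receptor of TWEAK, had 41.6 ± 15.8 and 58.4 ± 5.89; in MDA-MB-468 it and TNFRSF21 overlapped within their SDs. TNFRSF1A, the main receptor of TNF on epithelial cells, had 49.1 ± 0.742 and 19.5 ± 0.397, and LTBR, the receptor of lymphotoxin beta and LIGHT, 47.2 ± 2.54 and 11.4 ± 0.545. In HCC1806 these 2 lay within their SDs of each other, and TNFRSF12A spread across both. Lower in HCC1806, and within their SDs of each other there, were the TRAIL receptor TNFRSF10B at 13 ± 1.38, TNFRSF25 at 12.1 ± 1.39, NGFR (given below) and TNFRSF14, the receptor HVEM, at 10.6 ± 1.94. In MDA-MB-468 TNFRSF10B had 8.01 ± 0.469, TNFRSF25 3.11 ± 0.305 and TNFRSF14 2.18 ± 0.154 CPM per kb. FAS had 8.95 ± 1.01 CPM per kb in HCC1806, with 0.751 ± 0.0227 in MDA-MB-468. The TRAIL receptor TNFRSF10A had 7.72 ± 1.12 and 6.02 ± 0.336, its decoy TNFRSF10D 7.16 ± 0.702 and 1.16 ± 0.168, and RELT 6.35 ± 0.826 and 5.35 ± 0.202.

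**Figure D1:**
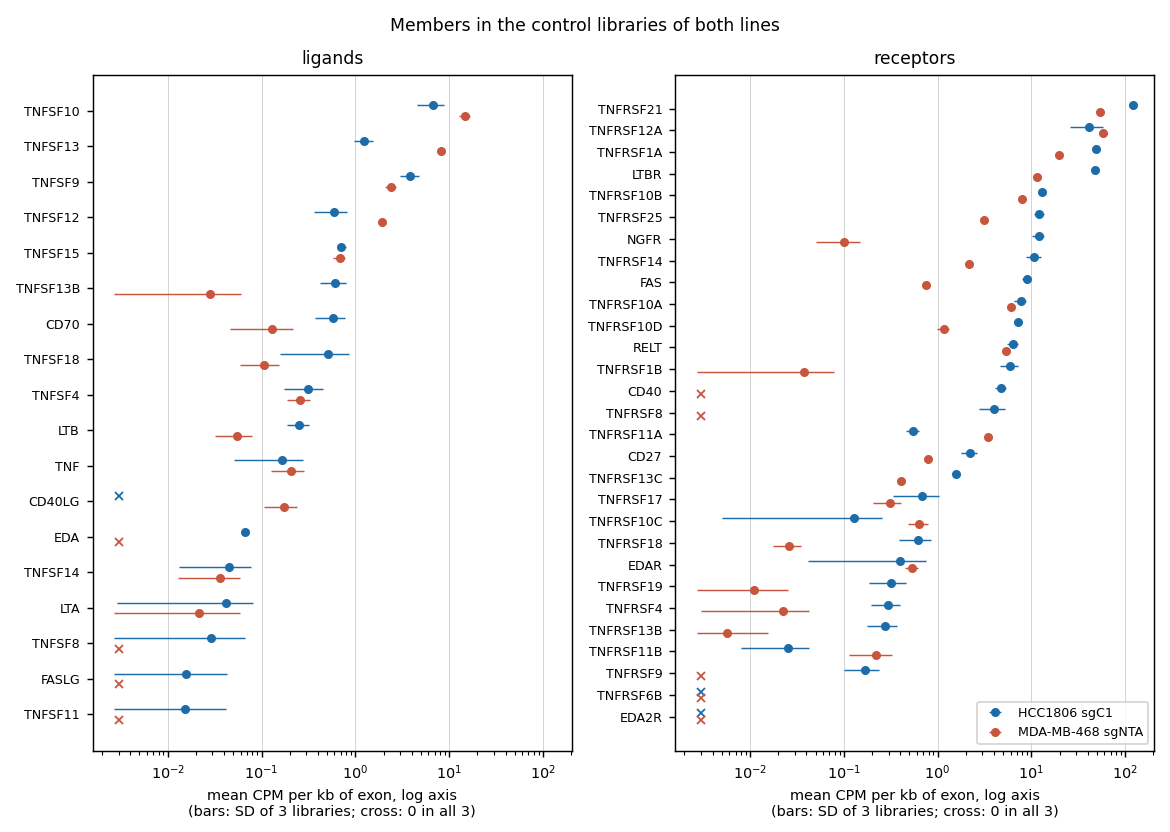
Mean CPM per kb of exon in the 3 control libraries of HCC1806 (blue) and MDA-MB-468 (red) on a log axis, ligands at left and receptors at right, with SD bars; a cross marks a member with 0 counts in all 3 libraries. Receptors reach 120 CPM per kb (TNFRSF21) and ligands 14.7 (TNFSF10), and the red points of CD40, TNFRSF8, NGFR and TNFRSF1B lie far left of the blue ones.

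Receptors known mainly from lymphocytes and nerve were also present in HCC1806. NGFR, the low-affinity neurotrophin receptor and a marker of basal epithelium, had 12 ± 1.75 CPM per kb. TNFRSF1B, the other receptor of TNF, had 5.89 ± 1.24, CD40 4.74 ± 0.641 and TNFRSF8, the receptor CD30, 4.02 ± 1.23. In MDA-MB-468 controls NGFR had 7 to 24 counts per library, TNFRSF1B 0 to 11, and CD40 and TNFRSF8 had none. CD27 had 2.21 ± 0.45 and 0.783 ± 0.066 CPM per kb, but 37.0% of its exon bases lie opposite CD27-AS1. The strand setting of the counting is not given in the sources used here. Reads in these bases may have been added from the antisense gene or left out as shared, so CD27 may be too high or too low. Likewise 22.3% and 4.9% of the NGFR exon bases lie opposite 2 other genes, with 143 and 229 counts in all 12 libraries against 1060 to 1372 for NGFR in each HCC1806 control. The same doubt holds for LTBR (6.7% opposite SCNN1A), TNFRSF25 (8.9% opposite ESPN) and TNFRSF14 (13.4% opposite TNFRSF14-AS1), and TNFRSF10C shares 26.0% and 13.3% of its exon bases with 2 other genes of its own strand. The BAFF receptor TNFRSF13C had 1.57 ± 0.0457 in HCC1806, with 0.405 ± 0.00308 in MDA-MB-468. TNFRSF17 (0.684 ± 0.35 and 0.307 ± 0.101) and TNFRSF13B (0.273 ± 0.0958 in HCC1806, at most 2 counts in MDA-MB-468), the other receptors of APRIL and BAFF, were scarcer. TNFRSF18 (0.614 ± 0.226), TNFRSF19 (0.321 ± 0.134) and TNFRSF4 (0.298 ± 0.101) were measured in HCC1806 and had at most 10, 6 and 4 counts in MDA-MB-468. EDAR, the receptor of EDA, varied widely in HCC1806, with 5 to 74 counts per control library (0.393 ± 0.351 CPM per kb), and had 0.538 ± 0.0869 in MDA-MB-468. TNFRSF11A, the receptor RANK, had 0.548 ± 0.089 in HCC1806, with 3.44 ± 0.147 in MDA-MB-468. The decoys TNFRSF10C (0.129 ± 0.124 and 0.64 ± 0.151) and TNFRSF11B, or osteoprotegerin (0.0252 ± 0.0171 and 0.221 ± 0.107), were likewise higher in MDA-MB-468.

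The control libraries were then compared between the lines, a contrast in which cell line and control guide cannot be told apart. A member counted as called when the p-value of edgeR's quasi-likelihood test, after Benjamini-Hochberg adjustment across the 27029 tested genes, was under 0.05. Of the 47 members 41 had enough counts to be tested; TNFSF8, TNFSF11, CD40LG, FASLG, EDA2R and TNFRSF6B did not. Called were 31 members, 25 lower and 6 higher in MDA-MB-468. Over all genes tested 74.2% were called, 40.1% lower and 34.2% higher, so the share of members called was near the background, while 61.0% of tested members were lower. The median log2 difference of MDA-MB-468 minus HCC1806 was -1.96 over the 27 receptors tested, -0.50 over the 14 ligands and -0.26 over all genes. CD40, TNFRSF8, TNFRSF9 and EDA, at 0 in MDA-MB-468 controls, lie below these medians also at the bounds given next. The exact values of these genes therefore do not move the medians, but their inclusion does. They had enough counts to be tested only through HCC1806, and could only be lower in MDA-MB-468. LTB, CD70, TNFSF13B, TNFRSF1B, TNFRSF13B, TNFRSF18 and TNFRSF19, also called lower, had too few counts to be tested with MDA-MB-468 alone. TNFRSF4, called lower as well, could be tested with neither line alone. Of the higher members, TNFRSF10C and TNFRSF11B had too few counts to be tested with HCC1806 alone. The member medians, the 61.0% lower and the calls of these members lean on members that passed the filter through the line where they are high. The 6 higher members were TNFSF10 (log2 difference 1.14 ± 0.325, edgeR adjusted p = 0.00441), TNFSF12 (1.71 ± 0.315), TNFSF13 (2.73 ± 0.169), TNFRSF10C (2.29 ± 0.604), TNFRSF11A (2.65 ± 0.173) and TNFRSF11B (3.06 ± 0.686).

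Among the lower members FAS differed by -3.58 ± 0.160 (edgeR adjusted p = 1.99e-12), NGFR by -6.87 ± 0.295 (1.19e-12), TNFRSF1B by -7.28 ± 0.425 (6.15e-11) and TNFSF13B by -4.31 ± 0.618 (7.04e-06) on the log2 scale. Members with 0 counts in MDA-MB-468 controls were compared with a floor of 3 counts per library: CD40 was at least 144-fold higher in HCC1806, TNFRSF8 at least 180-fold, TNFRSF9 at least 12.9-fold and EDA at least 5.66-fold. CD40 had 241, 276 and 321 counts in HCC1806 controls, 198, 294 and 334 in depleted libraries and 0 in each of the 6 MDA-MB-468 libraries, and its depletion effect in HCC1806 was -0.10 ± 0.193 on the log2 scale, with overlapping groups. TNFRSF1A (-1.34 ± 0.0855), LTBR (-2.05 ± 0.104), TNFRSF14 (-2.28 ± 0.144), TNFRSF10D (-2.63 ± 0.195) and TNFRSF21 (-1.16 ± 0.108) were also lower in MDA-MB-468. The 10 tested members that were not called were TNF, LTA, TNFSF4, TNFSF14, TNFSF15, EDAR, RELT, TNFRSF10A, TNFRSF12A and TNFRSF17.

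Depletion in HCC1806 changed 3 of the 41 members tested. TNFRSF9 and TNF rose and TNFRSF1A fell. Over all genes 2.49% were called in HCC1806, 1.16% up and 1.32% down, so the members' 7.32% stands for 3 genes. The median log2 fold change of the tested members was -0.0061, beside 0.0078 over all genes. With libraries scaled by their totals alone, 3 members were called and all 3 were up (TNFRSF9, TNF and TNFRSF10B).

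TNFRSF9, a costimulatory receptor of activated T cells that signals through TRAF1 and TRAF2, had 36, 24 and 15 counts in HCC1806 controls and 282, 261 and 301 after depletion, or 1.5, 1.07 and 0.635 against 13.8, 11.3 and 10.0 CPM. Every depleted library lay far above every control library. The log2 fold change was 3.45 ± 0.31, a 10.9-fold difference (edgeR adjusted p = 2.44e-05, and 7.28e-04 with HCC1806 fitted alone). In bulk RNA a larger share of expressing cells and more RNA per cell cannot be told apart. In MDA-MB-468 the gene had 0, 0 and 0 counts in controls and 3, 3 and 1 after depletion, at or under the floor in both groups, so no fold is given. TNFSF9, which encodes its ligand, had 6.44 ± 1.51 CPM in HCC1806 controls and 5.95 ± 1.52 after depletion, and 3.98 ± 0.567 and 3.05 ± 0.493 CPM in MDA-MB-468.

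TNF, the founding cytokine of the family, had 5, 11 and 3 counts in HCC1806 controls and 77, 50 and 34 after depletion, that is 0.208, 0.492 and 0.127 against 3.77, 2.17 and 1.14 CPM. The groups did not overlap, and the depleted libraries differed more than 3-fold among themselves, replicate 1 being highest. The log2 fold change was 3.08 ± 0.582 (edgeR adjusted p = 0.0101). Summed over libraries the counts went from 19 to 161, a ratio of 8.07 with a 95% interval of 5.00 to 13.8 that covers counting error only. With HCC1806 fitted alone the adjusted p was 0.0683, and without control replicate 1 it was 0.054, so the call rests on the shared estimate of the spread and on that library. In MDA-MB-468 TNF had 8, 16 and 13 counts in controls and 23, 24 and 10 after depletion, which overlapped (log2 fold change 0.71 ± 0.557, edgeR adjusted p = 1).

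TNFRSF1A, the receptor through which soluble TNF acts in most tissues, had 200, 194 and 197 CPM in HCC1806 controls and 149, 160 and 159 CPM after depletion. All depleted libraries were lower, and the spread within each group was small. The log2 fold change was -0.33 ± 0.0841 (edgeR adjusted p = 0.0441). The call is marginal: it was lost in 11 of 12 fits that left out a library (adjusted p 0.0397 to 0.0948), all but the one without depleted replicate 1, and with HCC1806 alone (adjusted p = 0.294). In MDA-MB-468 its levels were 78.7, 76.1 and 78.9 CPM in controls and 74.9, 75.3 and 74.2 CPM after depletion (log2 fold change -0.059 ± 0.0844, edgeR adjusted p = 1). TNFRSF1B, the other receptor of TNF, stood at 22.2 ± 4.65 CPM in HCC1806 controls and 19.9 ± 2.29 CPM after depletion, with overlap.

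**Figure D2:**
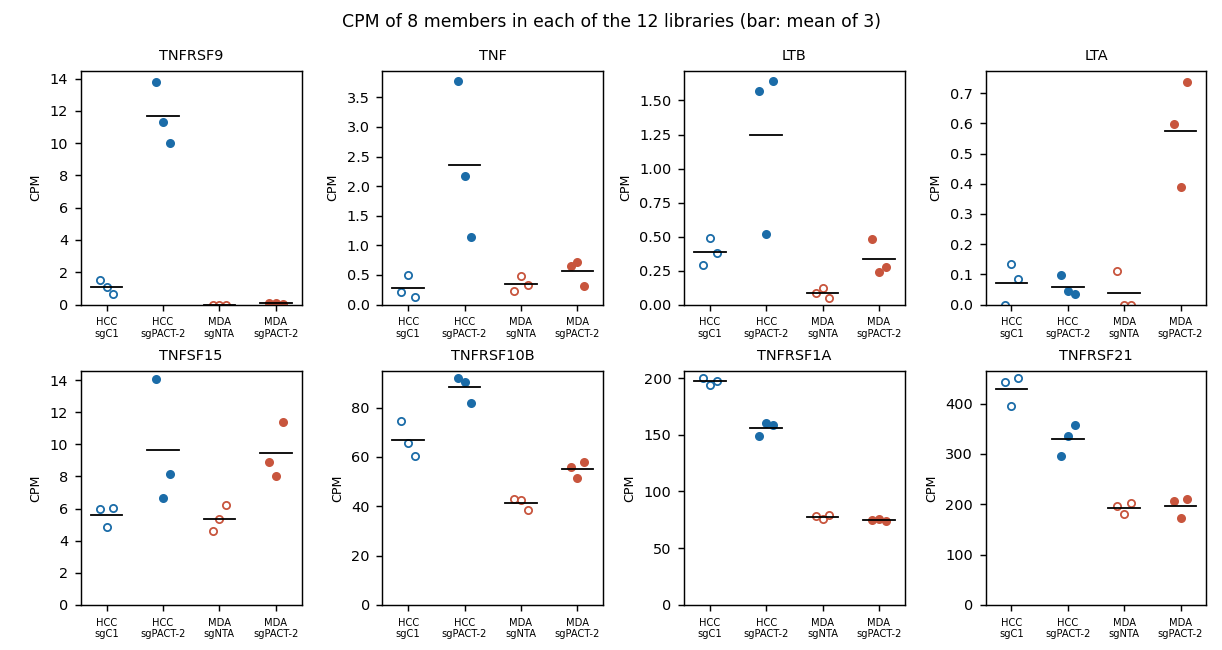
CPM of 8 members in each of the 12 libraries, open circles for control and filled circles for sgPACT-2 libraries, blue for HCC1806 and red for MDA-MB-468, with a bar at each group mean; every vertical axis starts at 0 and has its own range. TNFRSF9 and TNF are high only in the 3 filled blue points, LTA only in the 3 filled red points, and TNFRSF10B and TNFSF15 are higher in the filled points of both colours.

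At an unadjusted p under 0.05 stood 12 members in HCC1806 (29.3% of those tested, beside 14.5% of all genes). Besides the 3 called these were LTB, TNFSF15, TNFSF18, TNFRSF10B and TNFRSF11B with positive values, and LTBR, NGFR, TNFRSF21 and TNFRSF25 with negative values. None of these 9 passed the adjusted threshold by edgeR. DESeq2 called 4 of them, TNFSF15, TNFSF18, TNFRSF10B and TNFRSF21. Over all genes DESeq2 called 1245 in HCC1806, beside 672 by edgeR. TNFRSF10B came nearest, with 74.5, 65.6 and 60.5 CPM in controls and 92.2, 90.5 and 82.0 CPM after depletion (log2 fold change 0.40 ± 0.104, edgeR adjusted p = 0.0508). TNFRSF21 had 442, 396 and 451 CPM in controls and 295, 335 and 358 CPM after depletion, without overlap (-0.38 ± 0.106, adjusted p = 0.069). TNFSF18 had 43, 10 and 19 counts in controls and 211, 59 and 36 after depletion; replicate 1 was the highest of both groups and the groups overlapped (2.18 ± 0.626, adjusted p = 0.0798; 0.87 to 2.87 with 1 library left out, the lowest without depleted replicate 1). LTBR stood at 296 ± 16.0 CPM in controls and 247 ± 27.0 after depletion (-0.26 ± 0.100, adjusted p = 0.205). TNFRSF11B had 5 counts in the controls together and 21 in the depleted libraries, a ratio of 4.00 (95% interval 1.47 to 13.6, for counting error only).

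**Figure D3:**
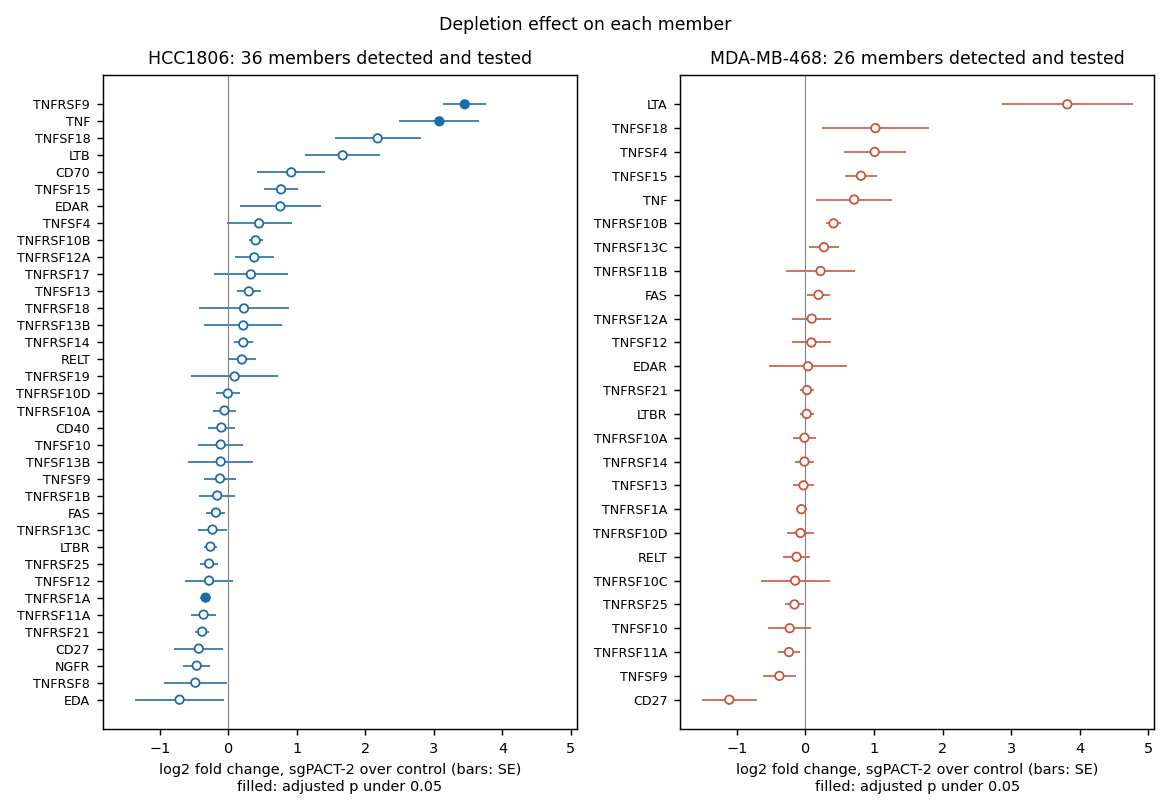
Log2 fold change of sgPACT-2 over control libraries with SE bars for the members detected and tested in each line, 36 in HCC1806 and 26 in MDA-MB-468; filled circles passed the adjusted threshold. TNFRSF9, TNF and TNFRSF1A are filled in HCC1806 and no member is filled in MDA-MB-468, where LTA has the largest value, 3.82.

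In MDA-MB-468 depletion changed none of the 41 members by edgeR, at a background of 0.17% of all genes called. DESeq2 called none either, giving no adjusted p to 4 members of low counts, LTA among them. Several of the 41 had passed the filter on low counts through HCC1806: CD40 and EDA had 0 counts in all MDA-MB-468 libraries and could show no change, 26 members were detected in this line, and 28 could be tested with it alone. At an unadjusted p under 0.05 stood 7 members, 17.1% beside 5.27% of all genes: LTA, LTB, TNFSF4, TNFSF15, TNFRSF9 and TNFRSF10B higher and CD27 lower after depletion. Of these TNFRSF9, at the floor in both groups, carries no information on a change. Both lines shared 1 estimate of the spread in this fit, and the biological coefficient of variation was 0.171 for all libraries but 0.0936 for MDA-MB-468 and 0.204 for HCC1806 when each was fitted alone. With MDA-MB-468 fitted alone 3 members passed, at a background of 1.51% of genes called: TNFRSF10B (log2 fold change 0.43 ± 0.0779, edgeR adjusted p = 0.00131), TNFSF15 (0.82 ± 0.154, adjusted p = 0.00187) and LTA (3.85 ± 0.846, adjusted p = 0.0111). With HCC1806 fitted alone 1 member passed, TNFRSF9, at a background of 0.315%.

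LTA had 4, 0 and 0 counts in the MDA-MB-468 controls and 21, 13 and 24 after depletion, or 0.111, 0 and 0 against 0.599, 0.391 and 0.738 CPM. All depleted libraries lay above all controls. The summed counts were 4 and 58, a ratio of 15.6 with a 95% interval of 5.79 to 59.4 for counting error, and the log2 fold change over both lines' spread was 3.82 ± 0.956 (edgeR adjusted p = 0.223; without control replicate 1 both other controls are at 0 and no fold is given). In HCC1806 LTA had 0, 3 and 2 counts in controls and 2, 1 and 1 after depletion, under the floor in both groups. Its partner LTB, which joins LTA in a membrane heterotrimer that binds LTBR, had 3, 4 and 2 counts in MDA-MB-468 controls and 17, 8 and 9 after depletion, a ratio of 4.08 (95% interval 1.92 to 9.67; log2 fold change 1.95 ± 0.653, edgeR adjusted p = 0.606). In HCC1806 LTB had 7, 11 and 9 counts in controls and 32, 12 and 49 after depletion, the middle replicate lying close to the controls (1.67 ± 0.549, adjusted p = 0.134).

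TNFSF15 had 4.60, 5.32 and 6.21 CPM in MDA-MB-468 controls and 8.92, 8.00 and 11.4 CPM after depletion (log2 fold change 0.81 ± 0.237, edgeR adjusted p = 0.415). In HCC1806 it had 5.96, 4.88 and 6.01 CPM in controls and 14.1, 6.63 and 8.18 CPM after depletion (0.77 ± 0.243, adjusted p = 0.116; 0.40 without depleted replicate 1). In both lines the groups did not overlap. TNFRSF10B, a death receptor of TRAIL, had 43.0, 42.5 and 38.6 CPM in MDA-MB-468 controls and 55.9, 51.5 and 57.8 CPM after depletion (0.41 ± 0.104, adjusted p = 0.223), again without overlap. Its fold was 1.32 in HCC1806, beside 1.33 in MDA-MB-468. Of the other TRAIL receptors, TNFRSF10A had log2 fold changes of -0.055 ± 0.171 in HCC1806 and -0.014 ± 0.170 in MDA-MB-468. TNFRSF10D had -0.0061 ± 0.178 and -0.073 ± 0.200 in the same order. The decoy TNFRSF10C, low in HCC1806, had 1.10 ± 0.645 and -0.15 ± 0.505, with overlap in both lines. The ligand TNFSF10 had -0.11 ± 0.329 and -0.23 ± 0.316. CD27 had 36, 39 and 45 counts in MDA-MB-468 controls and 8, 24 and 19 after depletion (-1.11 ± 0.405, adjusted p = 0.718). CD40LG went from 35 counts in the MDA-MB-468 controls together to 14, a ratio of 0.432 (95% interval 0.215 to 0.823, for counting error only). Its groups overlapped, with 6 to 15 counts per control library and 1 to 9 after depletion, and it was not tested by edgeR.

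None of the 41 members passed the interaction (the effect in MDA-MB-468 minus that in HCC1806) by edgeR, at a background of 0.122% of genes, and none by DESeq2, which gave no adjusted p to 13 of them, TNF and LTA among these. CD40 and EDA, at 0 in every MDA-MB-468 library, could give no interaction. At an unadjusted p under 0.05 stood 4 members, 9.76% of those tested and near the 8.39% of all genes. TNF had an interaction of -2.37 ± 0.811 (edgeR adjusted p = 0.399), LTA 4.17 ± 1.60 (0.471), TNFRSF21 0.41 ± 0.151 (0.441) and TNFRSF1A 0.27 ± 0.119 (0.546). The data therefore do not separate a response of TNF in HCC1806 from a smaller one in MDA-MB-468. For TNFRSF10B the interaction was 0.014 ± 0.146 and for TNFSF15 0.039 ± 0.338 on the log2 scale.

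A contrast added after these values were seen took the mean log2 effect over both lines. It called 5 members, all higher after depletion, at a background of 1.25% of genes: TNFRSF10B (mean log2 fold change 0.41 ± 0.0734, adjusted p = 0.00928), TNF (1.89 ± 0.404, 0.0265), TNFSF15 (0.79 ± 0.170, 0.0273), LTB (1.81 ± 0.426, 0.0465) and TNFRSF9. The counts of TNFRSF9 in MDA-MB-468 are at the floor, so its mean rests on HCC1806 and is not given. TNFRSF10B passed in all 12 fits that left out a library, with adjusted p up to 0.0463. TNF was lost without control replicate 1 or 3 or depleted replicate 2 of HCC1806, and without control replicate 1 or 3 or depleted replicate 1 or 2 of MDA-MB-468 (adjusted p up to 0.0787). TNFSF15 was lost without control replicate 2 or 3 of HCC1806, and without control replicate 1 or 2 or depleted replicate 1 or 3 of MDA-MB-468 (up to 0.101). LTB passed only without depleted replicate 1 or 2 of HCC1806 and was lost without any of the other 10 libraries (up to 0.144).

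LTA, TNF and LTB lie side by side on chromosome 6 (GRCh38, from LTA at 31572054 to LTB at 31582522), inside the major histocompatibility complex. TNFRSF9 lies on the short arm of chromosome 1 (7915894 to 7943165, minus strand) in a stretch that also holds TNFRSF18, TNFRSF4, TNFRSF14, TNFRSF25, TNFRSF8 and TNFRSF1B; none of these other 6 was called in either line. Promoter sequence was read from RefSeq (GRCh38.p14) for the 250 bases before the annotated starts, which were at hand for 30 of the 47 members. The NF-kappaB consensus, searched on both strands, was found before at least 1 start of 9 of these 30 members (30%), beside 11.8% of 27305 genes with such a window. The AP-1 motif TGANTCA was found before 6 of 30 (20%), beside 8.06% of genes. A gene with more starts has more chances of a match, and the 30 members had 41 windows. The number of windows per gene was not matched, so the shares are not like for like. These matches are a description of letters in a window and not of binding. The members with the consensus were FAS, LTA, LTB, TNFRSF9, TNFRSF14, TNFRSF19, TNFSF11, TNFSF13 and TNFSF14, of which only TNFRSF9 was called in HCC1806. The sequences below were chosen because TNFRSF9 had the largest fold change in HCC1806 and LTA the largest among the members detected in MDA-MB-468; TNF and LTB, the neighbours of LTA, were added after their values were seen. Each runs 5′ to 3′ on the strand of the gene, with motif matches in capitals.
TNFRSF9, chr1:7940894-7940923, minus strand, from 84 to 55 bases before the start: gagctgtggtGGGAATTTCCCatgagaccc
LTB, chr6:31582492-31582521, minus strand, from 96 to 67 bases before the start: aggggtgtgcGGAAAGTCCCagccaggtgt
LTA, before its downstream start, chr6:31572175-31572204, plus strand: tctaagccctGGGGGCTTCCCcgggcccca
The TNFRSF9 stretch holds 2 overlapping matches of the consensus, of 10 bases each, at 74 and 73 bases before the start, and the window also holds an AP-1 match 44 bases before the start that does not overlap them. In the LTA stretch 2 matches likewise overlap. These 3 stretches lie wholly or mostly in exons of other annotated transcripts of the same genes. Upstream of the other LTA start and upstream of TNF, outside annotated exons, neither motif was found in the windows searched:
LTA, chr6:31571849-31572053, plus strand, from 250 to 46 bases before the start: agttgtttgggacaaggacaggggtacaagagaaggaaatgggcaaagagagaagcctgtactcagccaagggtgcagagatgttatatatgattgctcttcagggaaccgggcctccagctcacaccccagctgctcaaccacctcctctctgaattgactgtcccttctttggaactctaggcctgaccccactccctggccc
TNF, chr6:31575315-31575564, plus strand, from 250 to 1 bases before the start: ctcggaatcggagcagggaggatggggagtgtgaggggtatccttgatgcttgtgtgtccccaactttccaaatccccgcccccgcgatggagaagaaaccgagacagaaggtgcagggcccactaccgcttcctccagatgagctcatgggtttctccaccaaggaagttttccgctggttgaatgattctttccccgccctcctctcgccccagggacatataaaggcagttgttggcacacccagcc
No match says only that these letters are not in the window.

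The remaining members were not called after depletion in either line. Of the receptors detected in both lines, TNFRSF12A had 76.8 ± 29.2 CPM in HCC1806 controls and 100 ± 53.8 after depletion, with overlap, and 108 ± 10.9 and 115 ± 11.7 CPM in MDA-MB-468. TNFRSF14 had 65.7 ± 12.1 and 76.4 ± 11.2 CPM in HCC1806, and 13.6 ± 0.96 and 13.4 ± 0.735 in MDA-MB-468. FAS had 38.1 ± 4.28 and 33.7 ± 3.66 CPM, and 3.19 ± 0.0965 and 3.66 ± 0.732 CPM. TNFRSF25 had 51.8 ± 5.95 and 42.6 ± 6.76 CPM, and 13.3 ± 1.31 and 12.0 ± 0.409. RELT had 40.2 ± 5.22 and 46.3 ± 19.9 CPM, and 33.8 ± 1.28 and 30.8 ± 0.742; none of these 5 was called in either line. TNFRSF11A had 4.94 ± 0.801 and 3.85 ± 1.10 CPM in HCC1806, and 31.0 ± 1.32 and 26.2 ± 2.19 in MDA-MB-468, and TNFRSF13C 6.17 ± 0.18 and 5.25 ± 0.776 CPM, and 1.60 ± 0.0121 and 1.93 ± 0.412. Of the receptors confined to HCC1806 by the detection rule or low in MDA-MB-468, NGFR had 49.9 ± 7.28 CPM in controls and 36.3 ± 8.78 after depletion, and TNFRSF8 15.0 ± 4.62 and 10.9 ± 9.11 CPM, replicate 1 being highest in both groups. TNFSF13 had 2.85 ± 0.64 and 3.47 ± 0.435 CPM in HCC1806, and 18.8 ± 0.477 and 18.4 ± 1.45 in MDA-MB-468. TNFSF4 had 1.23 ± 0.54 and 1.66 ± 1.06 CPM in HCC1806, and 1.03 ± 0.286 and 2.08 ± 0.568 CPM in MDA-MB-468, where all 3 depleted libraries lay above the controls (log2 fold change 1.01 ± 0.454, edgeR adjusted p = 0.924). TNFSF8 had 6 counts in HCC1806 controls and 37 after depletion, of which replicate 1 held 31. The effects of 12 further members in HCC1806 ran from -1.18 ± 0.773 (TNFRSF4) and -0.71 ± 0.644 (EDA), through TNFSF12, TNFSF13B, TNFRSF19, TNFRSF13B, TNFRSF18 and TNFRSF17, to 0.76 ± 0.593 (EDAR), 0.85 ± 0.827 (TNFSF14), 0.92 ± 0.494 (CD70) and 1.10 ± 0.645 (TNFRSF10C) on the log2 scale, and none was called. In MDA-MB-468 TNFSF18 had 1.02 ± 0.780, while TNFRSF10C, LTBR, TNFRSF21, EDAR, TNFSF12 and TNFRSF11B lay between -0.15 and 0.22.

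The proteins that carry the receptors' signal, and those that cut the ligands from the membrane, were read from a list of 43 genes written out by role. This list was chosen with earlier results of these data known, so its shares called are a description only. All 43 were tested. In HCC1806 7 of them rose and 0 fell, beside 2.49% of all genes called, and the median log2 fold change of the list was 0.11. BIRC3, a ubiquitin ligase of the TNF receptor complex and a known target of NF-kappaB, had 6.71, 8.82 and 6.18 CPM in HCC1806 controls and 35.3, 30.6 and 32.3 CPM after depletion (log2 fold change 2.18 ± 0.135, edgeR adjusted p = 8.21e-08). TRAF1, an adaptor of TNFRSF9, had 2.29, 2.69 and 1.61 CPM in controls and 13.3, 7.76 and 6.14 CPM after depletion (2.04 ± 0.286, adjusted p = 0.00101). TNFAIP3, a ubiquitin editor that limits signalling to NF-kappaB, had 57.4, 37.2 and 34.3 CPM in controls and 260, 117 and 104 CPM after depletion (1.90 ± 0.264, adjusted p = 9.52e-04). CYLD, a deubiquitinase with a like role, had 18.1, 16.4 and 13.3 CPM in controls and 35.1, 27.7 and 36.1 CPM after depletion (1.05 ± 0.131, adjusted p = 3.11e-04). In none of these 4 did the groups overlap, and all 4 also passed with HCC1806 alone and in every fit that left out a library.

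The other 3 were TRAF3 (0.65 ± 0.135, edgeR adjusted p = 0.0174), TNIP1, a partner of TNFAIP3 (0.51 ± 0.115, adjusted p = 0.0273), and FRMD8, a partner of the sheddase that releases TNF (0.45 ± 0.114, adjusted p = 0.0453). None of the 3 passed with HCC1806 alone (adjusted p 0.0728, 0.147 and 0.240), and without control replicate 2 the list had 4 calls. TRADD, the adaptor of TNFRSF1A, had 15.6, 15.8 and 16.7 CPM in HCC1806 controls and 14.6, 18 and 15.8 CPM after depletion. TRAF2, an adaptor of TNFRSF9 and of TNFRSF1B, had 43.4, 40.7 and 41.0 CPM in controls and 61.3, 52.3 and 41.9 CPM after depletion (0.31 ± 0.130, adjusted p = 0.258), the third depleted library lying among the controls.

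In MDA-MB-468 2 of the 43 rose and 0 fell, beside 0.17% of all genes called, and the median of the list was 0.0012. TNFAIP3 had 6.72, 6.63 and 5.89 CPM in controls and 19.6, 16.7 and 19.6 CPM after depletion (log2 fold change 1.54 ± 0.28, edgeR adjusted p = 0.0275). MAP3K14, the kinase NIK that starts the noncanonical NF-kappaB pathway below LTBR, CD40 and TNFRSF13C, had 18.8, 18.9 and 15.7 CPM in controls and 31.4, 30.3 and 35.1 CPM after depletion (0.86 ± 0.162, adjusted p = 0.0361). In HCC1806 MAP3K14 had 74.9, 62.2 and 83.6 CPM in controls and 88.4, 57.3 and 56.1 CPM after depletion, which overlapped, and 12.3% of its exon bases lie opposite MAP3K14-AS1. BIRC3 had 23.0, 25.1 and 25.2 CPM in MDA-MB-468 controls and 38.6, 35.4 and 38.5 CPM after depletion (0.62 ± 0.123, adjusted p = 0.0553). In each of these 3 genes the groups did not overlap. TNFAIP3 and MAP3K14 were both lost when any 1 of the 6 MDA-MB-468 libraries was left out (adjusted p up to 0.208 and 0.270), leaving 0 calls by edgeR, and both passed with MDA-MB-468 alone (adjusted p = 3.95e-10 and 1.20e-06).

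**Figure D4:**
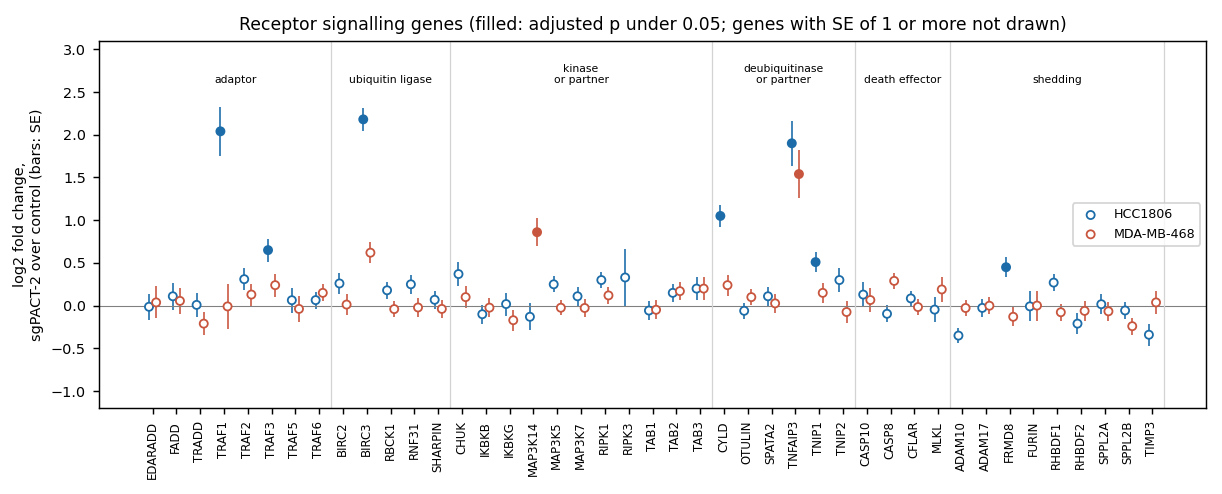
Log2 fold change of sgPACT-2 over control libraries with SE bars for the receptor signalling genes by role, blue for HCC1806 and red for MDA-MB-468, filled where the adjusted p was under 0.05; RIPK3 in MDA-MB-468, with SE over 1, is not drawn. BIRC3 and TRAF1 are high in HCC1806, TNFAIP3 is high in both lines, and MAP3K14 is high in MDA-MB-468.

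Of the signalling list 1 gene, BIRC3, passed the interaction (-1.56 ± 0.181, edgeR adjusted p = 0.00169): its log2 fold change was larger in HCC1806, where its control level was lower. TRAF1 stood at -2.05 ± 0.389 (adjusted p = 0.0503), CYLD at -0.81 ± 0.180 (0.121) and MAP3K14 at 0.99 ± 0.226 (0.129). TNFAIP3 had an interaction of -0.36 ± 0.378 (0.868). In the mean over both lines 5 of the 43 were called, all higher after depletion, among them BIRC3 (1.40 ± 0.0911, edgeR adjusted p = 1.41e-07), TRAF1 (1.01 ± 0.194, 0.0136; its effect in MDA-MB-468 was -0.0087 ± 0.265) and TRAF3 (0.45 ± 0.0958, 0.0273). The death effectors CASP8, CASP10, CFLAR and MLKL, which act below the death domain receptors, were not called in either line.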

How the data were processed

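RNA of 12 libraries was sequenced by the authors. Whole-number counts per Ensembl gene, not normalized, were deposited by the authors as 1 table; the submitters' processing notes name Trimmomatic 0.36, STAR 2.5.2b, featureCounts of Subread 1.5.2 and GRCh38. The strand setting and annotation release are not given in the sources used here. Gene positions and exon lengths came from GENCODE 29 by Ensembl ID, which matched 56898 of 57500 genes; the 485 genes with no name held 0.0284% of counts.

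Members, lists and rules were chosen with earlier results of these data known. Every member was to be accounted for, with values by library for members past the threshold and, where fewer than 3 passed in a line, the 3 with the smallest p there; of the signalling list the 3 smallest per line and adaptors of named members were named. Genes were filtered with filterByExpr on the 4 groups, scaled by TMM, and fitted in 1 quasi-likelihood model (edgeR 4.0.16, R 4.3.3). P-values were two-sided and adjusted by Benjamini-Hochberg over 27029 genes, threshold 0.05. Ratios of summed counts carry exact 95% intervals for counting error. The steps were tested on simulated data. Alternatives were DESeq2 1.42.0, RLE and unscaled libraries, other filters, each line alone, a replicate block, a threshold of 0.01 and each library left out. The mean of both lines was added after seeing the data. Figures were made with matplotlib 3.10.9.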

Additional observations from a re-analysis of the deposited data

Results flagged for a closer look

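Of the genes named, 2 responded differently to the guide in the 2 lines by the test of the difference itself. BIRC3 had an effect in MDA-MB-468 minus that in HCC1806 of -1.56 ± 0.181 on the log2 scale (edgeR adjusted p = 0.00169), from effects of 0.62 in MDA-MB-468 and 2.18 in HCC1806. It passed in all 18 alternative fits. PRKRA, the targeted gene, had a difference of 0.87 ± 0.143 (edgeR adjusted p = 0.0198), from -0.20 in MDA-MB-468 and -1.07 in HCC1806. It lost the threshold in 7 of 12 fits that left out a library (adjusted p up to 0.0931). No TNF superfamily member was flagged, by edgeR or, where it gave an adjusted p, by DESeq2. An unadjusted edgeR p under 0.05 was reached by 4, which is 9.76% of those tested beside 8.39% of all genes. With 3 libraries a group, single libraries were not tested as outliers.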

How the results depend on the processing

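No single-gene result followed across the fits changed direction, and no member passed the interaction in any edgeR or DESeq2 fit. In the fit reported 4 members stood at an unadjusted p under 0.05 for the interaction, 9.76% beside 8.39% of all genes. The median log2 fold change of the tested members in HCC1806 went from -0.0061 to 0.11 with library size only, a fit that called no member lower. Members called in HCC1806 (3) were 6 with DESeq2, 6 with no filter on low counts, 7 with the replicate block (the 3 and TNFSF15, TNFSF18, TNFRSF10B and TNFRSF21), 1 with HCC1806 fitted alone, 1 at an adjusted p under 0.01, and 2 to 6 with 1 library left out (6 without depleted replicate 1 and 5 without depleted replicate 3 of HCC1806). DESeq2 called 1245 of all genes there, beside 672 by edgeR, and gave no adjusted p to 15 members of low counts, TNF among them. Members called in MDA-MB-468 (0) were 1 with library size only, 1 with no filter, 3 with that line alone, and 0 to 1 with 1 library left out (TNFSF15, without HCC1806 depleted replicate 1). The mean of both lines (5) gave 3 with a mean of at least 50 counts, a filter that removes TNF and LTB, and 2 to 6 with 1 library left out. Signalling genes called in HCC1806 (7) were 4 with that line alone and 4 to 7 with 1 library left out; those in MDA-MB-468 (2) were 0 to 3. Members differing between control lines (31) were 30 to 34 with 1 library left out and 21 to 35 in the other fits. Those lower in MDA-MB-468 (25) were 23 to 26 and 17 to 28 in the same order. Scaling by library size only shifted the median of all genes by 0.12 in HCC1806 and by -0.25 between control lines (log2). By their labels, replicates shared only a number. For HCC1806, deviations of same-numbered control and depleted libraries correlated at 0.231, 0.137 and 0.0771. Its differently numbered pairs had -0.0767, -0.206, -0.223, 0.143, -0.0204 and -0.06. For MDA-MB-468 the same-numbered pairs had 0.0284, 0.0156 and 0.024. The differently numbered pairs of that line had 0.00431, -0.0337, -0.0254, 0.00985, -0.00194 and -0.0211. Whether same-numbered libraries were paired was not tested, and the fit reported has no replicate block. Causes of the shifts between fits were not tested. Members with under 10 counts a library are limited by depth.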
